A study of Solanum lycopersicum with 3 samples.

Results

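TBG1 to TBG5 are tomato beta-galactosidase genes, and their transcripts were measured here in fruit pericarp, the fleshy wall of the fruit. The members were chosen by their symbol in the platform annotation: 5 probe sets, 1 for each gene, among the 10209 of the array, of which 10038 were not controls. The probe sets are Les.3979.1.S1_at (TBG1), Les.2.1.S1_at (TBG2), Les.1.1.S1_at (TBG3), Les.4346.1.S1_at (TBG4) and Les.110.1.S1_at (TBG5). None of them carries a suffix that marks a probe set for several transcripts. The members are paralogues, and probe sequences were not used here, so hybridisation of one member's transcript to another's probes was not tested. By RefSeq's annotation of assembly SLM_r2.1, none of the 5 genes lies next to another member.

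The study asked whether a high-salt extraction recovers mRNAs of secreted and endomembrane proteins from pericarp. All 3 preparations came from plants of the cultivar Ailsa Craig grown under glass, and 1 Affymetrix tomato GeneChip was hybridised for each. The Ex2 pellet preparation is RNA from cell debris that was spun down at 10000 x g for 15 min and then extracted by the Ex2 method. The Ex2 preparation is RNA from the supernatant of that spin, made with 2 ml per g of a buffer of 0.6 M KCl, 0.2 M Tris, 0.2 M sucrose and 30 mM MgCl2. The Ex1 preparation was made with 1 ml per g of a phenol-containing buffer and mixed directly with phenol and chloroform. Each used 10 to 12 g of tissue. How the debris pellet was taken up for extraction, fruit age, ripening stage and the number of fruits pooled are not given in the sources used here. With 1 array per preparation there is no replicate, so the spread between samples is unknown, no test was possible, and every difference below is between single arrays. In such bulk RNA, fewer cells of a type and less RNA per cell cannot be told apart.

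Beta-galactosidases of plants remove terminal galactose from wall polymers, above all from the galactan side chains of pectin. Galactose is lost from the tomato fruit wall during ripening. Most are made with a signal sequence on ribosomes bound to the endoplasmic reticulum and pass through the secretory route to the wall. TBG4 encodes the galactanase that is best known in softening, and fruit with antisense suppression of it stay firmer. The enzymes encoded by TBG1 and TBG5 have also been described as active on galactan.

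All 5 members were brightest on the Ex2 array. TBG1 had an intensity of 292.7 on the Ex2 pellet array, 1903 on Ex2 and 295.2 on Ex1. TBG2 had 207.5 on the pellet, 1204 on Ex2 and 108.3 on Ex1. The pellet and Ex1 arrays thus gave TBG1 nearly the same reading, while for TBG2 the pellet stood between the others. TBG3 had 1008 on the pellet, 5554 on Ex2 and 639.6 on Ex1. TBG4, the softening galactanase gene, had 546.5 on the pellet, 2666 on Ex2 and 301.8 on Ex1. TBG5 had 320.5 on the pellet, 1994 on Ex2 and 199.7 on Ex1. For TBG2, TBG3, TBG4 and TBG5 the order was Ex2, then pellet, then Ex1. Only TBG1 had Ex1 above the pellet, by 2.47 intensity units, and with arrays centred on their medians, quantile normalization or scaling on ribosomal proteins the pellet was above Ex1 for it too. The order of Ex2 over pellet over Ex1 was found in 16% of the 5671 probe sets that reached the brightness filter on any array. That filter is an intensity of 175, the median over all arrays of probe sets that are not controls.

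**Figure D1:**
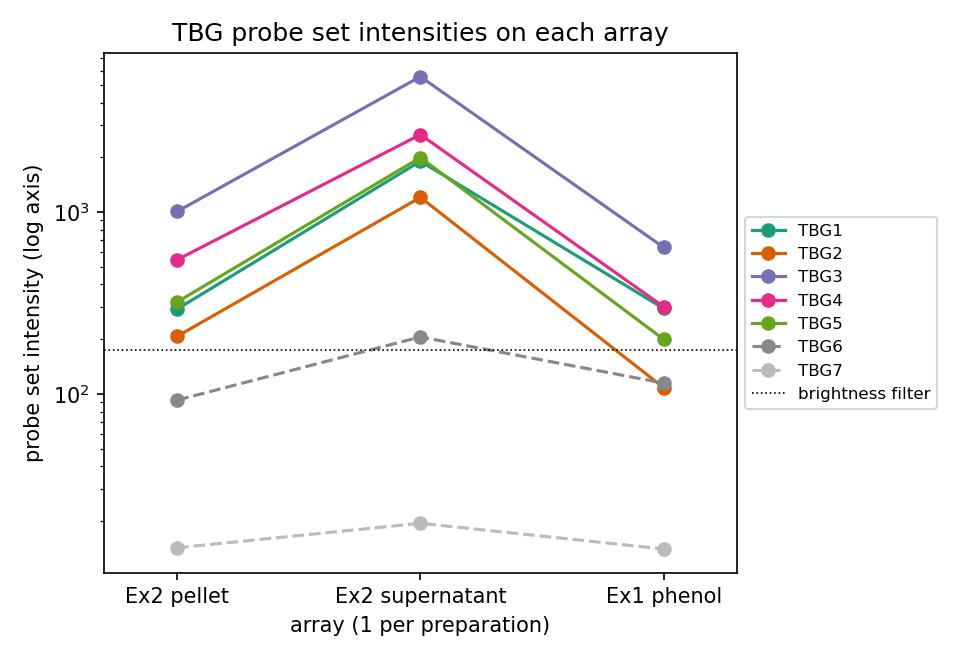
Probe set intensity on a log axis for TBG1 to TBG5 (solid lines) and their relatives TBG6 and TBG7 (dashed lines) on the Ex2 pellet, Ex2 supernatant and Ex1 arrays, 1 array each, with the brightness filter as a dotted line. Each solid line peaks on Ex2, from 1204 for TBG2 to 5554 for TBG3, and TBG7 stays under 20. Probe sets differ in how brightly they bind, so heights are compared between arrays and not between genes.

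Set against the direct phenol extract, the Ex2 supernatant gave higher readings for all of TBG1 to TBG5. TBG2 was 11.03-fold, TBG5 9.94-fold, TBG4 8.81-fold, TBG3 8.67-fold and TBG1 6.43-fold higher in Ex2 than in Ex1. Fold values are on the scale of log2(intensity + 1). All 5 members were past 2-fold, where 17.3% of the 5568 probe sets that passed the filter in this comparison were at least 2-fold higher in Ex2. The filter asks that the brighter of the compared arrays reach an intensity of 175. TBG2 passed it through its Ex2 reading and lay below it on Ex1, while TBG1, TBG3, TBG4 and TBG5 were above it on all 3 arrays. The median log2 difference was 3.14 over the members and -0.25 over all 5568 probe sets. Of those probe sets, 3 differed further than TBG2, 7 further than TBG5, 21 further than TBG4, 23 further than TBG3 and 131 further than TBG1.

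The members also lay close to each other. Their log2 differences for Ex2 minus Ex1 spanned 0.78, between 2.68 for TBG1 and 3.46 for TBG2. Their SD was 0.29, against 1.02 over the 21 other cell wall genes that passed the filter. The relative TBG6 is counted among those 21. With it added to the members, the SD was 0.98 and the span 2.63 over 6 genes. Over the 26 genes with several bright probe sets, those of 1 gene lay a median of 0.22 and at most 1.15 apart in this comparison. TBG3 and TBG4, 0.02 apart, therefore cannot be ordered, and TBG1 stood 0.43 below TBG3.

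In the debris pellet TBG1 to TBG5 were lower than in the Ex2 supernatant by a similar factor for each gene. TBG1 was 6.48-fold lower in the pellet, TBG5 6.21-fold, TBG2 5.78-fold, TBG3 5.51-fold and TBG4 4.87-fold. All 5 passed 2-fold here as well, against 19.8% of 5538 probe sets at least 2-fold lower in the pellet. The median log2 difference was -2.53 over the members and 0.07 over those probe sets. The members spanned 0.41 on the log2 scale, from -2.70 for TBG1 to -2.28 for TBG4. No other named gene was further down in the pellet than TBG1, and 27 probe sets of all kinds were. For TBG4 these numbers were 11 named genes and 124 probe sets.

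Over the 24 genes with several bright probe sets in this comparison, those of 1 gene lay a median of 0.38 and at most 1.21 apart. That is about the span of all 5 members, so they cannot be ordered against the pellet. Since both comparisons use the Ex2 array, their values are given side by side and not as separate support.

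The pellet and the direct phenol extract differed least. TBG2 was 1.91-fold, TBG4 1.81-fold, TBG5 1.60-fold and TBG3 1.57-fold higher in the pellet than in Ex1. TBG1 had a log2 difference of -0.01. None of the 5 reached 2-fold, and 3.78% of 5297 probe sets were past that limit in the direction of the pellet. With arrays centred on their medians and with scaling on ribosomal proteins TBG2 passed it, at 1.00 and 1.04. The 4 members above 0 compare with 48.7% of those probe sets. The gap between TBG1 and TBG3, the next lowest member, was 0.67. Of 25 genes with several bright probe sets, 1 had a gap that wide between its own probe sets in this comparison, and the median was 0.18. Under scaling on the hybridisation spikes, described below, the differences shrank to 0.35 for TBG2, 0.27 for TBG4, 0.10 for TBG5 and 0.07 for TBG3, and TBG1 was at -0.59.

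**Figure D2:**
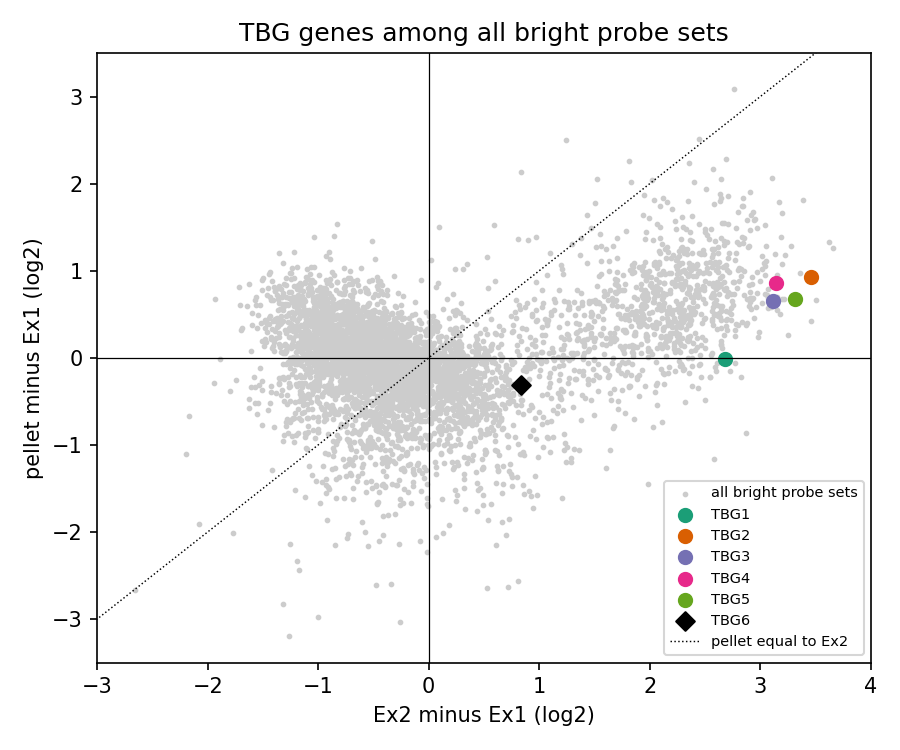
Each point is a probe set, with the log2 difference Ex2 minus Ex1 on the horizontal axis and pellet minus Ex1 on the vertical axis, both from log2(intensity + 1). Grey points are all 5671 probe sets that reached the filter on any array, the coloured points are the TBG genes, and below the dotted line the pellet is under Ex2. TBG2 to TBG5 sit together at the right, between 3.12 and 3.46 across and 0.65 and 0.93 up, with TBG1 lower at 2.68 and -0.01.

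The scaling of the arrays bears on each of these values. Bacterial spike RNAs for bioB, bioC and bioD, added at hybridisation, were brighter than on Ex1 by 2.33-fold on Ex2 and by 1.50-fold on the pellet, at the median of 21 probe sets. The probe set for the large ribosomal RNA read 568.4 on the pellet, 367.4 on Ex2 and 1809 on Ex1. The ratio of 3' to 5' signal of actin, a sign of RNA length, was 1.35 on the pellet, 1.71 on Ex2 and 1.20 on Ex1. In the same order of arrays it was 1.34, 1.45 and 1.34 for gapdh, and 2.81, 3.27 and 2.62 for ef1a. Each ratio was highest on Ex2. The part of these differences in the TBG values was not tested, apart from the scalings given here. Of the 5568 probe sets for Ex2 minus Ex1, 964 were at least 2-fold higher and 560 lower as deposited, 425 and 4028 when scaled on the spikes, and 1252 and 30 when scaled on RPL3 and RPL8, which encode ribosomal proteins. For pellet minus Ex2 the same splits were 943 to 1095, 2176 to 505 and 382 to 1547. For pellet minus Ex1 they were 200 to 253, 44 to 980 and 265 to 195. The spike scaling put the median of the 10038 probe sets at -1.22 for Ex2 minus Ex1, at 0.59 for pellet minus Ex2 and at -0.54 for pellet minus Ex1. With it, the members ranged between 1.46 (TBG1) and 2.24 (TBG2) for Ex2 minus Ex1, and between -2.06 (TBG1) and -1.64 (TBG4) for pellet minus Ex2. All 5 members therefore stayed at least 2-fold higher in Ex2 than in each other array under median centring, quantile normalization and scaling on spikes or ribosomal proteins. The deposited array medians were already close, at 170.0 on the pellet, 177.2 on Ex2 and 178.7 on Ex1, so median centring could move little. Quantile normalization also moved little, with 966 probe sets at least 2-fold higher and 586 lower for Ex2 minus Ex1. Of the 10038 probe sets, 946 had the same deposited value on all 3 arrays. As deposited, 14.1% of the 5671 probe sets bright on any array were at least 2-fold higher in Ex2 than in both others.

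**Figure D3:**
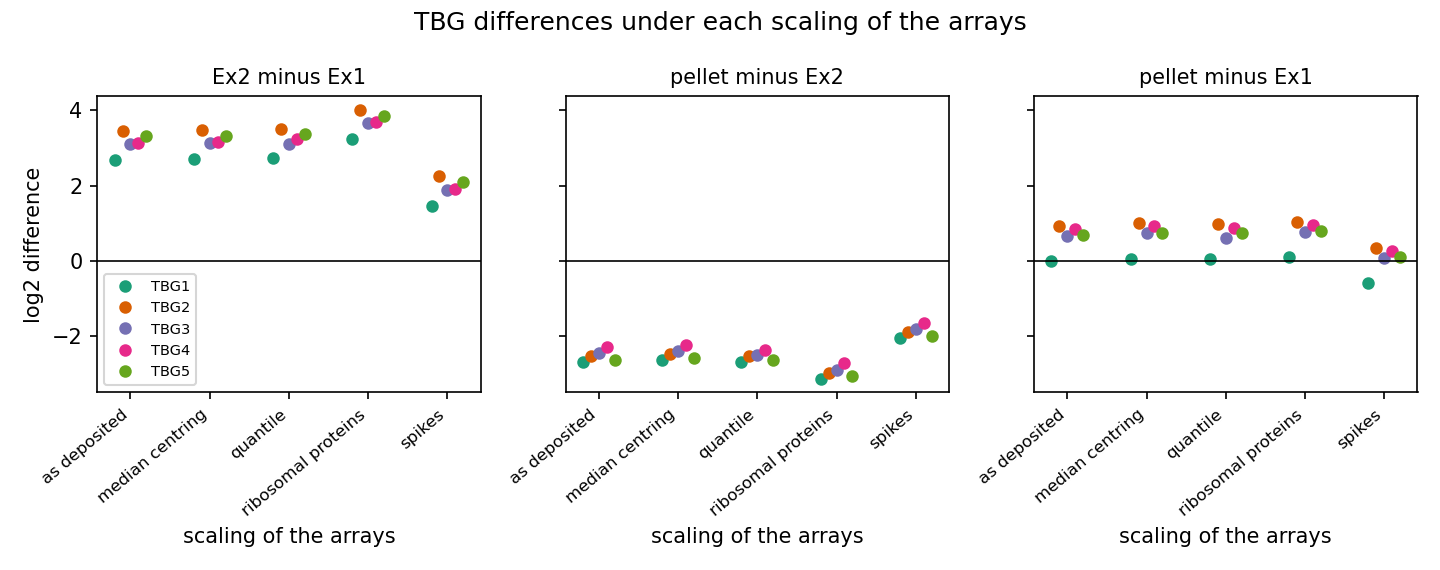
Log2 differences of TBG1 to TBG5 in each of the 3 comparisons, as deposited and under 4 scalings of the arrays. The Ex2 minus Ex1 points stay above 1 and the pellet minus Ex2 points below -1 under every scaling drawn. For pellet minus Ex1, TBG1 changes sides of 0 and TBG2 to TBG5 come near it with scaling on the spikes.

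Markers of the tissue were bright. The ripening genes E8, whose expression follows ethylene, and PG2, the fruit polygalacturonase, read between 10417 and 16220 on the 3 arrays. The highest reading of any probe set was 17521, and whether a ceiling limited the differences of such bright genes was not tested. Of 6 ripening genes listed, 4 were named on the array, and their summed intensity was 39780 on the pellet, 46927 on Ex2 and 39762 on Ex1. Both epidermal genes named on the array of 4 listed, the lipid transfer protein genes LE16 and TSW12, summed to 2073 on the pellet, 1928 on Ex2 and 695.0 on Ex1. Between pellet and Ex2 they went opposite ways, with log2 differences of 0.56 for LE16 and -0.23 for TSW12. The chlorophyll-binding protein gene CAB4, the 1 green tissue gene named of 5 listed, read 521.6 on the pellet, 226.8 on Ex2 and 306.2 on Ex1. The seed gene MAN2, the 1 named of 3 listed, stayed under 14 on all 3 arrays, and neither vascular gene listed was named. The part of cell types in the TBG differences was not tested. For Ex2 minus Ex1 the 4 ripening genes had log2 differences of 1.55 (EXP1), 0.29 (PG2), -0.02 (E8) and -0.02 (Psy1). For pellet minus Ex2 they were at -1.28 (EXP1), -0.13 (PG2), 0 (E8) and -0.20 (Psy1).

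TBG6 and TBG7 are the other members of the gene family named on the array. TBG6, whose suppression has been linked to fruit cracking, had 92.5 on the pellet, 205.8 on Ex2 and 114.8 on Ex1. It was 1.79-fold higher in Ex2 than in Ex1 and in the pellet 2.21-fold below its Ex2 reading. Its Ex2 reading alone passed the filter, and its log2 difference of 0.84 against Ex1 was 1.85 below that of TBG1, the lowest of the 5. With scaling on the spikes the TBG6 difference against Ex1 turned to -0.37, and its difference between pellet and Ex2 was -0.51. TBG7 had 14.3 on the pellet, 19.5 on Ex2 and 14.1 on Ex1, below the filter on every array, so no difference can be read from it. As deposited, the order of Ex2 over Ex1 over pellet in TBG6 was also that of TBG1. However, TBG6 lay below the filter on Ex1 and on the pellet, and TBG1 differed between those arrays by only 2.47 units. The shared order of Ex1 and pellet is therefore not read as a likeness.

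Among genes of the wall, 44 others from a list of enzymes and wall proteins, TBG6 and TBG7 among them, were named on the array. Of these, 21 passed the filter for Ex2 minus Ex1, all 21 were higher in Ex2 on the deposited scale, and 16 were at least 2-fold higher, with a median of 2.02. Of all 5568 probe sets that passed it, 1923 were above 0. Without the filter the median over all 44 was 0.68. Through the Ex2 reading alone, 9 of the 21 passed. With scaling on the spikes 7 of the 21 turned below 0 and the median was 0.81. As deposited, the list's median was 1.11 below that of TBG1 to TBG5, a gap that a constant shift of an array leaves nearly as it is. In the list, 6 genes differed further than TBG1. They were GP1, the polygalacturonase beta subunit gene, at 3.62, the endoglucanase genes Cel1 at 3.38 and Cel3 at 2.91, the pectin methylesterase genes PMEU1 at 3.28 and PME2.1 at 2.93, and the wall invertase gene lin5 at 2.81. GP1 alone lay above TBG2.

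By role, the pectin list had a median of 2.93 over the 5 of its 8 genes that passed the filter. The endoglucanases had one of 2.61 over 4 of 6. The xyloglucan genes of the XTH type, which cut and rejoin xyloglucan, had a median of 1.17 over 4 of 10. The expansin genes EXP5 and EXP1, for proteins that loosen the wall, stood at 2.02 and 1.55. Of these genes, GP1, PMEU1, Cel1, CEL8, XTH3, LOC543916 (XTH9), tXET-B2 and EXP5 passed through their Ex2 reading alone. The filter thus kept genes for being high in Ex2, and these medians do not describe the whole lists. At the low end were the pectin-cutting PG2 at 0.29 and the xylosidase gene XYL1 at 0.18. PG2 read 13236 on Ex1 and 16220 on Ex2, near the highest reading of any probe set, 17521. Whether the top of the scale limited its difference was not tested, and a comparison with dimmer genes is uncertain for that reason. PG2 and XYL1 were among the 7 that turned with the spike scaling.

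For pellet minus Ex2, 20 of the 21 bright wall genes were below 0 on the deposited scale, against 2502 of all 5538 probe sets. Of the 21, 15 were at least 2-fold lower, and 5 passed the filter through 1 array alone. Their median was -1.31, and that of all 44 without the filter was -0.47. With scaling on the spikes 17 of the 21 were below 0 and the median was -0.67. Only Cel3 at -2.35 and GP1 at -2.29 lay below TBG4, the member with the smallest difference. TLRP, a structural wall protein gene, was the exception at 0.46. For pellet minus Ex1, 16 wall genes passed the filter, 4 of them through 1 array alone. Their median was 0.53, where the members had one of 0.68, and that of all 44 without the filter was 0.13. With scaling on the spikes the list's median turned to -0.054 and the members' was 0.10. With 1 array a group, none of these gaps between gene sets was tested.

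**Figure D4:**
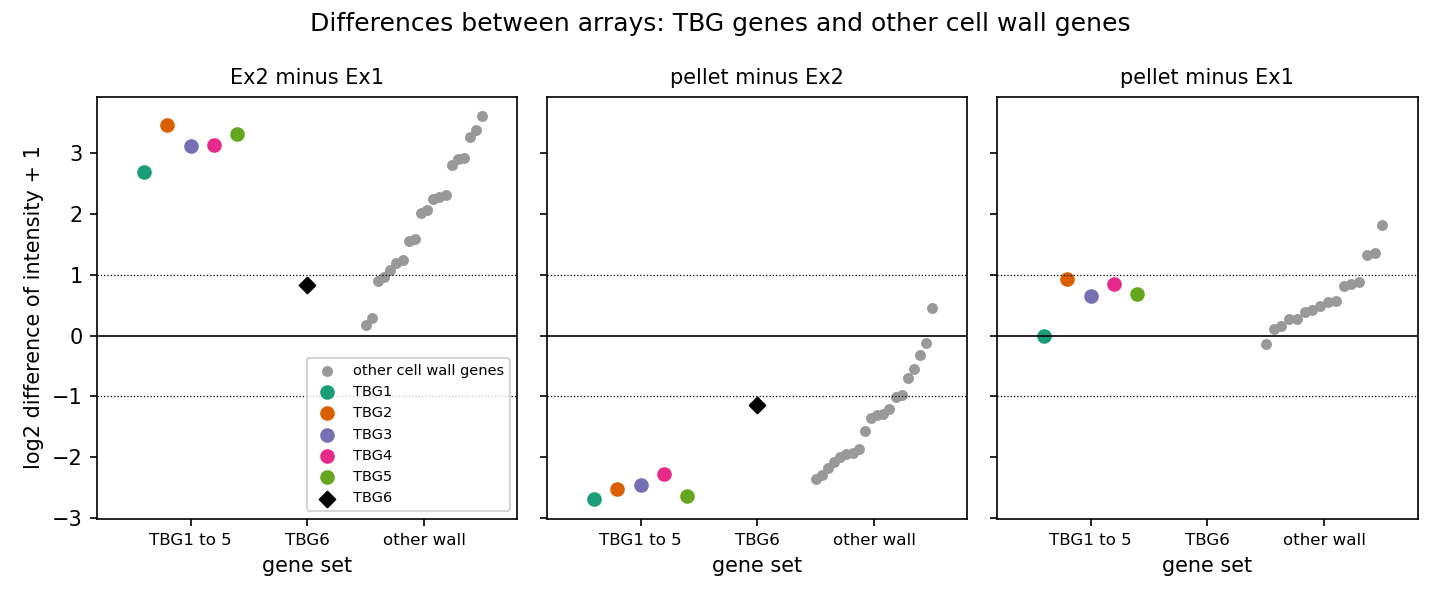
Log2 differences of intensity + 1 in the 3 comparisons for TBG1 to TBG5 (coloured), TBG6 (diamond, where it passed the filter) and the other cell wall genes that passed it (grey, in rising order), with dotted lines at 2-fold. For Ex2 minus Ex1 the members stand at 2.68 to 3.46, and the other wall genes reach 3.62. For pellet minus Ex2 the members stand at -2.70 to -2.28, and the other wall genes go down to -2.35. TBG6 stands apart from the members in both. For pellet minus Ex1 the members, at -0.01 to 0.93, lie within the other wall genes' range of -0.14 to 1.82.

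Likeness of pattern was measured as the Euclidean distance over the pair of log2 differences Ex2 minus Ex1 and pellet minus Ex1, among 502 named genes bright on any of the 3 arrays. The members lay between 0.20 and 1.22 from each other, with a median of 0.39 over 10 pairs, where all pairs of named genes had a median of 1.05. TBG2 was nearest to TBG5 at 0.29 and then to TBG4 at 0.33. TBG5 lay almost equally near to TBG3, at 0.199, and to EIN2, at 0.204. EIN2 is an ethylene signalling gene of the endoplasmic reticulum membrane. TBG4 was nearest to SBT1, a subtilisin-like protease gene, at 0.14, and then to TBG3. TBG3 was nearest to EIN2 at 0.11, and then to the proton pump gene LHA1 at 0.17. TBG1 was nearest to the antiporter gene NHX2 at 0.16 and the receptor gene Eix1 at 0.32, and no other member was among its 24 nearest genes. The 5 genes outside the family nearest to its median were EIN2, LHA1, GLUII, LOC543517 (older name LeARF1) and SBT1, at 0.13 to 0.25. These distances rest on 3 arrays and describe them only.

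Few probe sets were as far apart as the members in both Ex2 comparisons at once. Taking the smallest member difference in each as the limit, 45 of 5671 probe sets, or 0.794%, reached both. They were the 5 members, 4 other named genes and 36 unnamed probe sets. The 4 were GP1, EIN2, LHA1 and Cel3. The members met this limit by its construction, so their share is a description.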

How the data were processed

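The authors deposited 1 intensity per probe set and array, on a linear scale. Per the submitters' processing notes GCOS 5.0 and RMA were used, with order and parameters not stated in the labels. The number of arrays limits how precise any value is. Symbols are those of an old platform annotation, updated by Entrez gene ID to RefSeq (assembly SLM_r2.1). Of the probe sets that are not controls, 909 had 1 symbol, 0 several and 9129 none here, and 885 matched RefSeq. They name 803 genes, each represented by its brightest probe set. Differences were taken on log2(intensity + 1), and no test was run with 1 array per group. Named were all members, wall genes past the filter, and the 2 nearest genes of each member and 5 of the family median. The members, gene lists and alternatives were chosen with earlier results of these data known. The code was tested on simulated data. A planned split by hydrophobic protein start was not run, since no protein sequences were used here. Python 3.11.15, pandas 2.3.3, NumPy 2.4.6 and matplotlib 3.10.9 were used.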

Additional observations from a re-analysis of the deposited data

How the results depend on the processing

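No paired analysis was possible because each group has 1 array, and for the same reason no replicate could be left out. All 5 members stayed past the threshold in Ex2 minus Ex1 and pellet minus Ex2 under every alternative run: no filter, an upper-quartile filter, 4 scalings, a pseudocount of 16, 3-fold and 1.5-fold thresholds, averaging the probe sets of a gene, and leaving out cross-hybridising designs. The last 2 change nothing by construction, since each member has 1 uniquely designed probe set. Dropping the filter or using 1.5-fold could not lower these counts of 5 either. The 3-fold result follows from the folds given above. Only the scalings and the pseudocount recompute the differences. The family median for Ex2 minus Ex1 was 3.15 with arrays centred on medians, 3.23 with quantile normalization, 1.92 with spikes, 3.69 with ribosomal proteins and 3.09 with the larger pseudocount. For pellet minus Ex2 it was -2.47 with centring, -1.89 with spikes, -2.97 with ribosomal proteins and -2.45 with the larger pseudocount. For pellet minus Ex1 it was 0.75 with centring, 0.74 with quantile normalization, 0.10 with spikes, 0.79 with ribosomal proteins, 0.64 with the larger pseudocount, and 0.65 with the upper-quartile filter, which leaves TBG3 alone. In that comparison 1 member, TBG2, passed 2-fold with centring and with ribosomal proteins, and 4 passed 1.5-fold, against 0 as reported. Of the 5297 probe sets, 247, 265 and 647 were past those limits in the same direction. The pellet minus Ex1 difference of TBG1 changed sign to 0.060 with centring, 0.039 with quantile normalization and 0.096 with ribosomal proteins. A filter on the mean of the 3 arrays and the addition of TBG6 and TBG7 were chosen after seeing the data. The first changed no value, and the second gave medians over 6 genes of 3.13 (Ex2 minus Ex1) and -2.50 (pellet minus Ex2). Dim readings, such as that of TBG2 on Ex1, limit how far folds can be read.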
